A study of Homo sapiens with 4 samples.

Results

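The ATF4 amino acid response genes examined here are 10 genes of one transcriptional programme, namely *ATF4*, *DDIT3*, *TRIB3*, *CHAC1*, *ASNS*, *PSAT1*, *PHGDH*, *SHMT2*, *MTHFD2* and *SLC3A2*. They were chosen by name, and each of the 10 symbols matched a single gene among the 61498 genes of the deposited tables. K562 is a human erythroleukemia line that moves toward the erythroid state when it is given hemin, the oxidised form of heme. Poly(A)+ RNA of 2 untreated libraries and of 2 libraries from cells kept with 50 µM hemin for 108 h was sequenced, and all cells grew in medium with added glutamine and fetal calf serum. The labels number the libraries of a condition as replicates 1 and 2 and do not say whether they came from separate cultures, so the p-values measure only the spread between these libraries.

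ATF4 is a basic leucine zipper transcription factor of the integrated stress response. Kinases that sense a shortage of amino acids, unfolded proteins in the endoplasmic reticulum, double-stranded RNA or a lack of heme phosphorylate the initiation factor eIF2, which slows most translation but favours that of the *ATF4* mRNA. ATF4 then switches on genes for amino acid synthesis and uptake, and with prolonged stress also the genes of the factor CHOP and of feedback inhibitors. The kinase that senses heme, HRI, is best known from red cell precursors, where bound heme keeps it inactive. RNA sequencing sees the mRNA of these genes and not the amount of ATF4 protein.

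After hemin, 4 of the 10 genes fell and 6 did not pass the test. *CHAC1* was lowered most, followed by *DDIT3*, *ASNS* and *TRIB3*, whereas the mRNA of *ATF4* itself had a log2 fold change of 0.09 that was not past the threshold. These calls come from edgeR's quasi-likelihood test over 14458 genes, with an adjusted p under 0.05 as the threshold. Over all genes tested, 7.14% were called lower and 7.00% were called higher, or 1033 and 1012 genes, against 1358 and 729 when libraries were scaled by their size only. None of the 10 genes was called higher by edgeR, DESeq2 or limma, and at an unadjusted p under 0.05 edgeR had 1 higher, *ATF4*. The median log2 fold change was -0.11 for the 10 genes and -0.0048 for all genes tested. For the 6843 genes at or above the lowest mean level of the 10 genes it was 0.0278.

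Short stretches of *CHAC1* and *ASNS* are shown because these are the genes whose decrease was called under every setting tried, and because both hold the letters TGATGNAA before a RefSeq transcription start. This is the core of the composite element through which ATF4 acts together with C/EBP factors. Each stretch has 30 bases of GRCh38.p14, read 5′ to 3′ on the strand of the gene, with the matching bases in capitals. That of *CHAC1* is chr15:40953251-40953280 on the plus strand and that of *ASNS* is chr7:97872458-97872487 on the minus strand.
CHAC1: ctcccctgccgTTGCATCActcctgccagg
ASNS: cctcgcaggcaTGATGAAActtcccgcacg

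In *CHAC1* the match lies on the opposite strand, from -209 to -202 relative to the start, and reads TGATGCAA there. In *ASNS* it lies on the strand of the gene from -68 to -61 and reads TGATGAAA. Both matches also lie inside the gene as GENCODE 44 annotates it, in the 5′ UTR of 1 *CHAC1* transcript and of 2 *ASNS* transcripts that start farther upstream. RefSeq windows from 250 bases before to 50 bases after a start were at hand for 9 of the 10 genes, all but *SHMT2*, and were searched on both strands. The only other match among them was TGATGTAA in *SLC3A2*, on the opposite strand from position 38 to 45 after one of its starts and within coding sequence of 2 transcripts. Of all 35116 windows, 3.62% held the letters, and of all 27305 genes with a window, 4.46% did. *DDIT3* and *TRIB3*, which fell as well, had no match in these windows, which says only that the letters are absent from this stretch. A match is a description of the sequence and no evidence of binding.

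The 4 libraries held 7455447 to 8241534 expected counts, the reads per gene as estimated by RSEM, of which 12.75% to 13.64% came from the mitochondrial genome. The cells were checked against the label. All 12 erythroid markers examined were at 1 TPM or more in every library, while *CD3E*, *MS4A1*, *MPO* and *CDH5*, markers of other blood and vessel cells, were listed at 0 in all 4. The summed level of the erythroid markers was 5671 and 5887 TPM in the untreated libraries and 7195 and 6728 TPM in the hemin-treated ones. The summed level of 13 markers of other cells, nearly all of it from *KRT18* and *EPCAM*, was 232 to 240 TPM throughout. Of the 12 erythroid markers, 3 rose (*HBZ*, *HBE1* and *TFRC*), 2 fell (*NFE2* and *ALAS2*) and 7 were not called by edgeR. The higher sum came from the globin genes *HBE1*, *HBG1*, *HBG2* and *HBZ*, at 4955 and 5126 TPM together in untreated and 6447 and 5985 TPM in treated cells, while the other 8 markers summed to 717 to 762 TPM in all libraries. The part of these differences in the results below was not tested. In such bulk samples, fewer cells that express a gene and less RNA of it per cell cannot be told apart. The counts of the 10 genes ran from 149 to 5419 in a library, and RSEM's posterior SD, which describes the division of reads between similar genes, was at most 1.31% of the count.

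The levels of the 10 genes in untreated cells spanned more than an order of magnitude on the TPM scale, which corrects for transcript length. *ASNS* was the highest at 598 ± 7.1 TPM and *ATF4* the next at 438 ± 3.17 TPM (SD, n = 2). *MTHFD2* at 355 ± 12.8 TPM and *SHMT2* at 352 ± 11.9 TPM could not be ordered, since their libraries overlapped, and neither could *SLC3A2* at 269 ± 3.61 TPM and *PHGDH* at 265 ± 8.32 TPM. *PSAT1* at 203 ± 1.44 TPM, *TRIB3* at 148 ± 2.08 TPM, *DDIT3* at 47.5 ± 0.092 TPM and *CHAC1* at 39.8 ± 0.891 TPM followed without overlap between neighbours. The order changed at the top after hemin, with *ATF4* at 466 ± 13.8 TPM above *ASNS* at 451 ± 2.07 TPM, and no overlap between their libraries. *TRIB3*, *DDIT3* and *CHAC1* remained the lowest in that order.

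**Figure D1:**
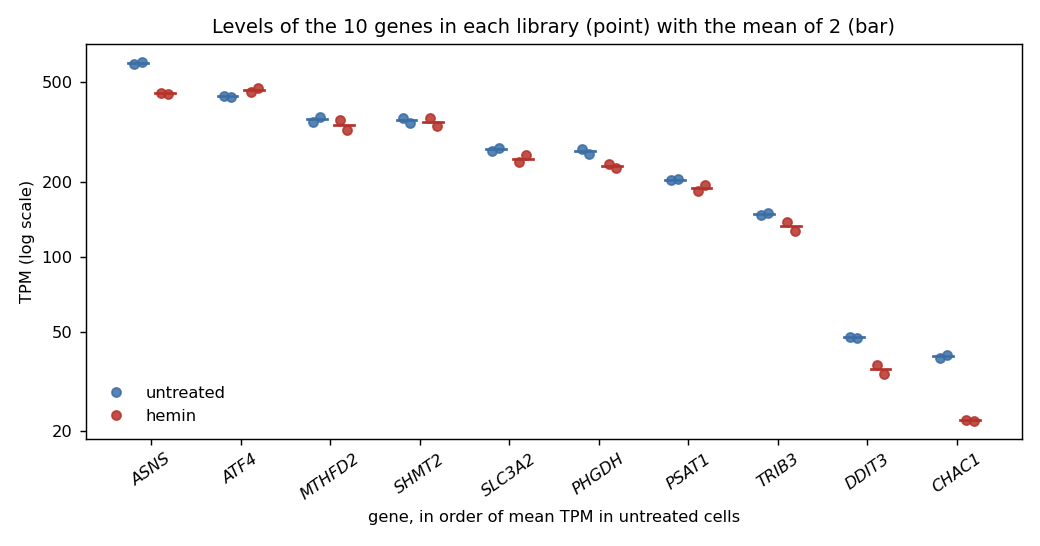
TPM of the 10 genes on a log axis, with a point for each of the 2 libraries per condition and a bar for their mean, blue for untreated and red for hemin-treated cells. The gap between the colours is widest for CHAC1, clear for ASNS and DDIT3, and absent for SHMT2 and MTHFD2, whose points overlap.

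*ATF4* (ENSG00000128272, chromosome 22 from 39519695 to 39522683, plus strand of GRCh38) encodes the factor that gives the programme its name. It was at 440.7 and 436.2 TPM in the untreated libraries and at 456.5 and 476.0 TPM in the hemin-treated ones. Both hemin-treated libraries lay above both untreated ones. The log2 fold change of 0.09 (standard error 0.0395, 95% confidence interval 0.0019 to 0.18) had an adjusted p of 0.162 by edgeR, and no alternative setting brought it under 0.05. The interval leaves room for a rise of up to 1.13-fold.

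*DDIT3* (ENSG00000175197, chromosome 12 from 57516588 to 57521737, minus strand) encodes CHOP, the bZIP factor that ATF4 induces and that promotes cell death under lasting stress. It was read at 47.52 and 47.39 TPM in untreated cells and at 36.87 and 33.99 TPM after hemin, or 222 to 229 counts against 172 to 174. The untreated libraries were nearly identical and both lay well above the treated ones. Its log2 fold change was -0.39 (standard error 0.0936, edgeR adjusted p = 0.0247). The call was lost with DESeq2 (adjusted p = 0.187) and by limma on log2(TPM + 1) and log2(TPM + 0.1) (adjusted p = 0.113 and 0.123). It was also lost without untreated replicate 1, without untreated replicate 2 and without hemin replicate 2. The log2 fold change of *DDIT3* stayed between -0.43 and -0.34 under all 13 alternatives. *DDIT3* shares 355 exonic bases with *MARS1* on the opposite strand. The RSEM options that the study lists include none for strand, so reads from these bases may not have been separated by strand. *MARS1*, the methionyl-tRNA synthetase gene, had a log2 fold change of -0.07 (edgeR adjusted p = 0.275). *DDIT3* also shares 58 exonic bases with *MBD6* on the opposite strand. *MBD6* was given 324.56 and 274.45 counts in untreated cells and 248.54 and 248.85 after hemin. The part of these shared bases in the decrease of *DDIT3* was not tested.

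*TRIB3* (ENSG00000101255, chromosome 20 from 362835 to 397559, plus strand) encodes a pseudokinase that is induced by ATF4 and CHOP and restrains ATF4 in return. Its level was 147.0 and 150.0 TPM in untreated cells and 137.9 and 127.1 TPM after hemin. The libraries did not overlap, but the distance was small. The log2 fold change of -0.16 (standard error 0.0441) passed narrowly, with an edgeR adjusted p of 0.0419. Leaving out any one library ended the call, with adjusted p-values of 0.0721 and 0.179 without untreated replicates 1 and 2 and of 0.0734 and 0.171 without hemin replicates 1 and 2, and DESeq2 gave 0.15.

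*CHAC1* (ENSG00000128965, chromosome 15 from 40952962 to 40956512, plus strand) encodes a γ-glutamylcyclotransferase that degrades glutathione and is a target of ATF4. It showed the largest decrease of the 10 genes. The untreated libraries stood at 39.20 and 40.46 TPM and the hemin-treated libraries at 22.15 and 22.02 TPM, from 284 and 273 counts against 149 and 165. The spread within each condition was far smaller than the distance between the conditions. The log2 fold change was -0.83 (standard error 0.0883, edgeR adjusted p = 0.000667), which puts the treated cells at 0.561 of the untreated level with a 95% interval from 0.489 to 0.644. Fits without any one library gave -0.85 to -0.82, with edgeR adjusted p-values of at most 0.00804.

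**Figure D2:**
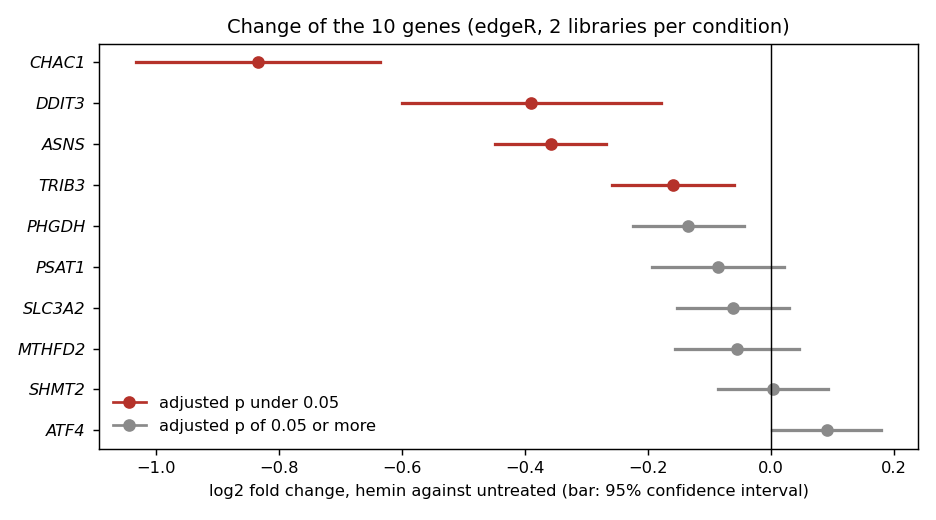
Log2 fold change of each gene after hemin with its 95% confidence interval from edgeR, red for an adjusted p under 0.05 and grey otherwise. CHAC1 stands apart at -0.83, DDIT3 and ASNS follow at -0.39 and -0.36, and the intervals of PSAT1, SLC3A2, MTHFD2 and SHMT2 include 0.

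*ASNS* (ENSG00000070669, chromosome 7 from 97851677 to 97872542, minus strand) encodes asparagine synthetase, which makes asparagine from aspartate and glutamine and is a textbook target of the amino acid response. It stood at 592.8 and 602.8 TPM in untreated cells and at 452.4 and 449.5 TPM after hemin. The libraries of each condition lay close together and the conditions did not overlap. The log2 fold change was -0.36 (standard error 0.0402, edgeR adjusted p = 0.000802), or 0.78 of the untreated level with a 95% interval from 0.733 to 0.831. Fits without any one library gave -0.39 to -0.32. A long noncoding RNA gene, ENSG00000284707, shares 2415 exonic bases with *ASNS* on the same strand and was given 34.02 and 60.24 counts in untreated cells and 63.1 and 88.16 counts after hemin, which is small beside the 4044 to 5419 counts of *ASNS*.

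The enzymes of serine synthesis did not pass the test. *PHGDH* (ENSG00000092621, chromosome 1 from 119648411 to 119744218, plus strand), the first enzyme of that path, was at 270.5 and 258.8 TPM in untreated cells and at 235.9 and 226.3 TPM after hemin. The conditions did not overlap, and its log2 fold change of -0.13 (standard error 0.0402) fell just short of the threshold with an edgeR adjusted p of 0.0545. It passed under 3 of the 13 alternatives, with library size only (adjusted p = 0.0198), with the stricter count filter (0.033) and with posterior mean counts (0.0399). *PSAT1* (ENSG00000135069, chromosome 9 from 78297125 to 78330093, plus strand), the aminotransferase of the same path, was at 202.5 and 204.5 TPM against 183.0 and 193.8 TPM. Its log2 fold change was -0.09 (95% interval -0.19 to 0.02, edgeR adjusted p = 0.275).

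The mitochondrial enzymes of one-carbon metabolism showed no detectable change. *SHMT2* (ENSG00000182199, chromosome 12 from 57229573 to 57234935, plus strand) converts serine to glycine and hands a carbon unit to folate. It was at 360.0 and 343.1 TPM in untreated cells and at 358.1 and 333.3 TPM after hemin, so the conditions overlapped. Its log2 fold change was 0.0034 with a 95% interval from -0.09 to 0.09 and changed sign in 5 of 13 alternatives. *MTHFD2* (ENSG00000065911, chromosome 2 from 74186172 to 74217565, plus strand) oxidises that carbon unit. It was at 345.6 and 363.7 TPM against 352.9 and 322.4 TPM, again with overlap, and its log2 fold change was -0.05 (95% interval -0.16 to 0.05, edgeR adjusted p = 0.474).

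*SLC3A2* (ENSG00000168003, chromosome 11 from 62856004 to 62888880, plus strand) encodes CD98, the heavy chain that carries amino acid exchangers such as LAT1 and xCT to the cell surface. It was at 266.2 and 271.3 TPM in untreated cells and at 238.6 and 255.5 TPM after hemin. The libraries did not overlap on the TPM scale, while the log2 fold change from counts was only -0.06 (95% interval -0.15 to 0.03, edgeR adjusted p = 0.357). Over the 10 genes, TPM was lower in both hemin-treated libraries than in both untreated ones for 7 and higher for 1. Among all genes tested, 28.5% had such a separation downward and 21.3% upward.

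A ratio within a library does not depend on how libraries are scaled. Relative to *ATF4*, the level of *CHAC1* was 8.89% and 9.27% in untreated cells and 4.85% and 4.63% after hemin. That of *DDIT3* was 10.8% and 10.9% in untreated cells and 8.08% and 7.14% after hemin. *ASNS* was at 135% and 138% of the level of *ATF4* in untreated cells, and at 99.1% and 94.4% after hemin. For *TRIB3* the values were 33.4% and 34.4% against 30.2% and 26.7%. The ratio was lower in both hemin-treated libraries than in both untreated ones for all 9 other members, called or not, and for 39.0% of all other genes tested. Part of each difference comes from the higher TPM of *ATF4* itself. The ratio of *SHMT2* to *ATF4* was 81.7% and 78.7% in untreated cells and 78.4% and 70.0% after hemin.

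**Figure D3:**
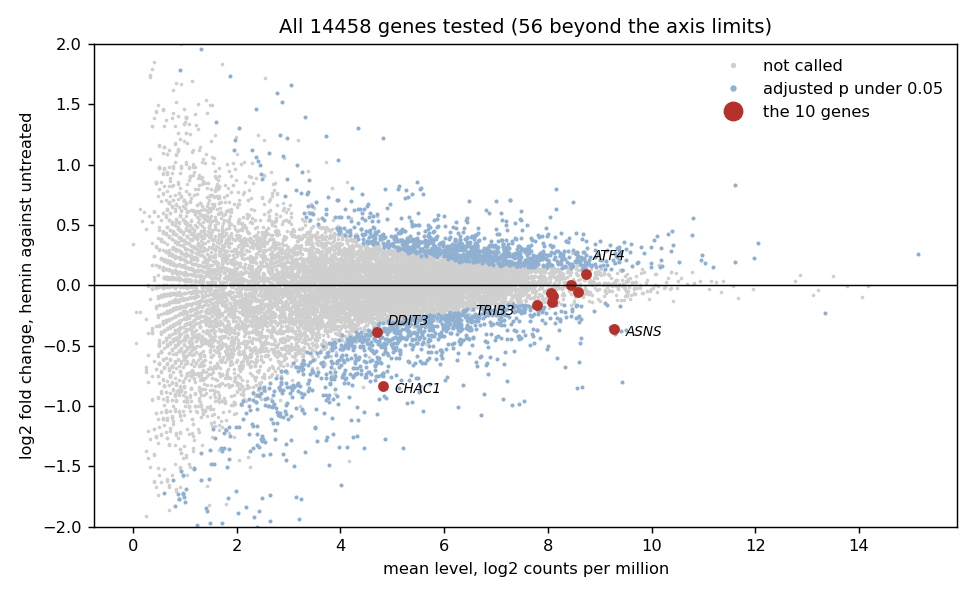
Log2 fold change after hemin against mean level in log2 CPM for all 14458 genes tested, with genes under an adjusted p of 0.05 in blue and the 10 genes in red. Most of the 10 genes lie at high mean levels near 0, with CHAC1, DDIT3 and ASNS well below 0, and 56 genes lie beyond the axis limits.

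The wider pathway was described with 8 lists that hold 108 further genes, of which 103 were tested. Of these, 17 fell and 8 rose, with a median log2 fold change of -0.05. The list of the IRE1 and ATF6 arms, which act beside the ATF4 arm, held 9 of the 17 and 0 of the 8. For comparison, 7.14% of all genes tested were called lower, 7.00% higher and 14.1% in either direction. These shares are also the comparison for the counts of each list below. On the log2(TPM + 1) scale, limma kept 3 of these 25 calls, those of *DDIT4*, *GDF15* and *HSPA5*. The lists overlap in function with the 10 genes but share none of them.

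Upstream of ATF4, 16 genes of the eIF2 kinases, of eIF2 and its exchange factor eIF2B, and of the phosphatase arm were tested, and 1 of them changed. *EIF2AK1*, which encodes HRI, was given 2152 and 2008 counts in untreated and 1656 and 1919 in treated cells, or 167 ± 10.5 TPM and 124 ± 6.34 TPM (SD, n = 2). Its log2 fold change was -0.23 from counts (standard error 0.0457, edgeR adjusted p = 0.0119) and -0.42 by limma on log2(TPM + 0.1), where it was not called (adjusted p = 0.0941). The call was lost without untreated replicate 1 (edgeR adjusted p = 0.0621) and without hemin replicate 1 (0.0546). The other kinases did not pass, with log2 fold changes of -0.02 for *EIF2AK2* (PKR, edgeR adjusted p = 0.831), -0.04 for *EIF2AK3* (PERK, 0.81) and -0.10 for *EIF2AK4* (GCN2, 0.373). *EIF2AK1* was the most abundant of these kinases, the others standing at 17.8 to 24.4 TPM in untreated cells.

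Among 10 partner transcription factors, 2 fell and 8 were not called. *ATF3*, a bZIP factor induced downstream of ATF4, had 218 and 210 counts in untreated cells against 112 and 143 after hemin. Its log2 fold change was -0.76 (standard error 0.11, edgeR adjusted p = 0.00317). *CEBPD* had 112 and 110 counts against 49.4 and 86.5, with a log2 fold change of -0.72 (edgeR adjusted p = 0.0493). The hemin-treated libraries of *CEBPD* differed widely from each other, and its call was lost without untreated replicates 1 and 2 (adjusted p = 0.137 and 0.164) and without hemin replicate 1 (0.181), where the fold change was -0.41. *CEBPB* and *CEBPG*, the C/EBP partners that bind with ATF4, were not called.

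Among the downstream stress outputs, 3 of 13 tested genes fell and 1 rose, with a median log2 fold change of -0.17. *DDIT4*, an inhibitor of mTORC1 that ATF4 and other stress factors induce, had 2686 and 2706 counts in untreated cells and 1723 and 1843 after hemin. It fell by 0.61 on the log2 scale (standard error 0.0457, edgeR adjusted p = 0.000141). *GDF15*, a secreted stress cytokine, had 3497 and 3498 counts against 2413 and 2651 and fell by 0.48 on the same scale (edgeR adjusted p = 0.000322). *TNFRSF10B*, a death receptor gene that CHOP induces, had a log2 fold change of -0.31 (edgeR adjusted p = 0.028), which was lost without untreated replicate 2 (0.154) and without hemin replicates 1 and 2 (0.055 and 0.0648). *SQSTM1*, which encodes the autophagy receptor p62 and is also a target of NRF2, rose by 0.52 (standard error 0.0516, edgeR adjusted p = 0.000502). By limma on log2(TPM + 1) its change was 0.26 and was not called (adjusted p = 0.121).

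Of 11 tested amino acid transporters, 3 rose and 8 were not called. *SLC7A1*, the arginine and lysine carrier CAT1, rose from 40.3 ± 0.021 TPM to 47.2 ± 0.792 TPM (SD, n = 2), a log2 fold change of 0.27 (edgeR adjusted p = 0.00465). *SLC38A1* and *SLC38A2*, which carry neutral amino acids such as glutamine, had log2 fold changes of 0.28 and 0.20 (edgeR adjusted p = 0.00983 and 0.0162). The call of *SLC38A1* was lost without untreated replicate 2 (0.0601) and by limma on log2(TPM + 1), where its change was 0.17, and that of *SLC38A2* when untreated replicate 1 (0.0921) or hemin replicate 2 (0.0538) was omitted. By limma, *SLC38A2* had the opposite sign on both TPM scales, at -0.03.

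Among 11 tested enzymes of serine, glycine and folate metabolism outside the 10 genes, 2 rose and 9 were not called. These were *TYMS*, thymidylate synthase, at 0.31 (edgeR adjusted p = 0.0066) and *MTHFD1*, the cytosolic counterpart of *MTHFD2*, at 0.27 (0.00841). Of 14 other amino acid synthesis enzymes, 2 rose. *GLUL*, glutamine synthetase, had 2446 and 2428 counts in untreated cells and 3150 and 3482 after hemin, and its log2 fold change came to 0.44 (standard error 0.042, edgeR adjusted p = 0.000444). *CBS*, the first enzyme of transsulfuration, rose by 0.17 (edgeR adjusted p = 0.0225), which was lost without untreated replicate 1 (0.108) and without untreated replicate 2 (0.0529).

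**Figure D4:**
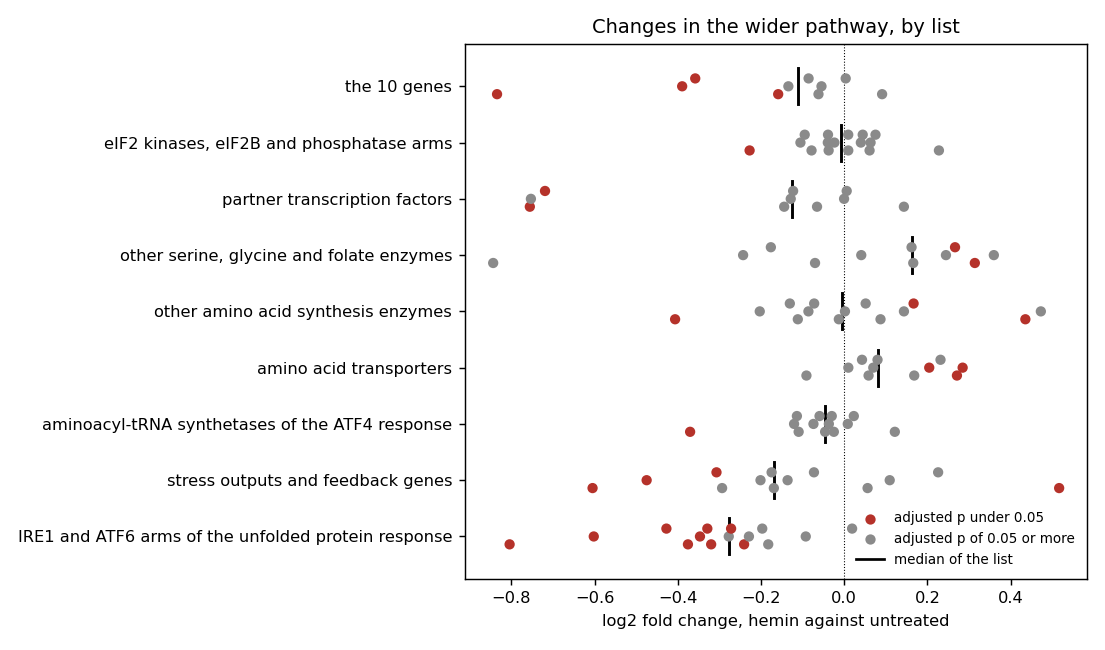
Log2 fold change after hemin of every tested gene in the 10-gene set and in 8 further lists, red for an adjusted p under 0.05 and grey otherwise, with the median of each list as a black bar. The list of the IRE1 and ATF6 arms has its median at -0.28, and the transporters and the folate enzymes have medians above 0.

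Aminoacyl-tRNA synthetases are a further class of ATF4 targets, and here 1 of 13 genes, the tRNA exporter *XPOT* included, changed. *AARS1*, the alanyl-tRNA synthetase, had 6480 and 6116 counts in untreated cells and 4695 and 5101 after hemin, with a log2 fold change of -0.37 (standard error 0.0372, edgeR adjusted p = 0.000502). The letters TGATGNAA occurred in the windows of 7 of the 11 genes of this list that had one, *AARS1* among them, so genes with and without a change carried them. They also occurred in 4 of the 11 amino acid transporters with a window, among them *SLC7A1* and *SLC38A1*, which rose.

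The IRE1 and ATF6 arms of the unfolded protein response, which act beside the PERK and ATF4 arm, are shown beside it. Of 15 genes, 9 fell and 6 were not called, with a median log2 fold change of -0.28. *HSPA5*, the chaperone BiP, fell from 506 ± 11.2 TPM to 282 ± 5.9 TPM (SD, n = 2), a log2 fold change of -0.80 (standard error 0.041, edgeR adjusted p = 1.9e-05). *HERPUD1*, *HSP90B1* and *PDIA4*, which serve the degradation and folding of proteins in the endoplasmic reticulum, had log2 fold changes of -0.60, -0.38 and -0.33. The endoplasmic reticulum stress element, CCAAT and CCACG with 9 bases between them, was searched on both strands. It occurred in the windows of 4 of these 15 genes, against 0.0916% of all genes with a window. It was found in none of the 9 members of the ATF4 programme with a window. The 4 genes include *HSPA5* and *HSP90B1*, which fell, and *XBP1*, so genes with and without a change carried it. *XBP1*, the factor that IRE1 activates by splicing its mRNA, was not called.

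**Figure D5:**
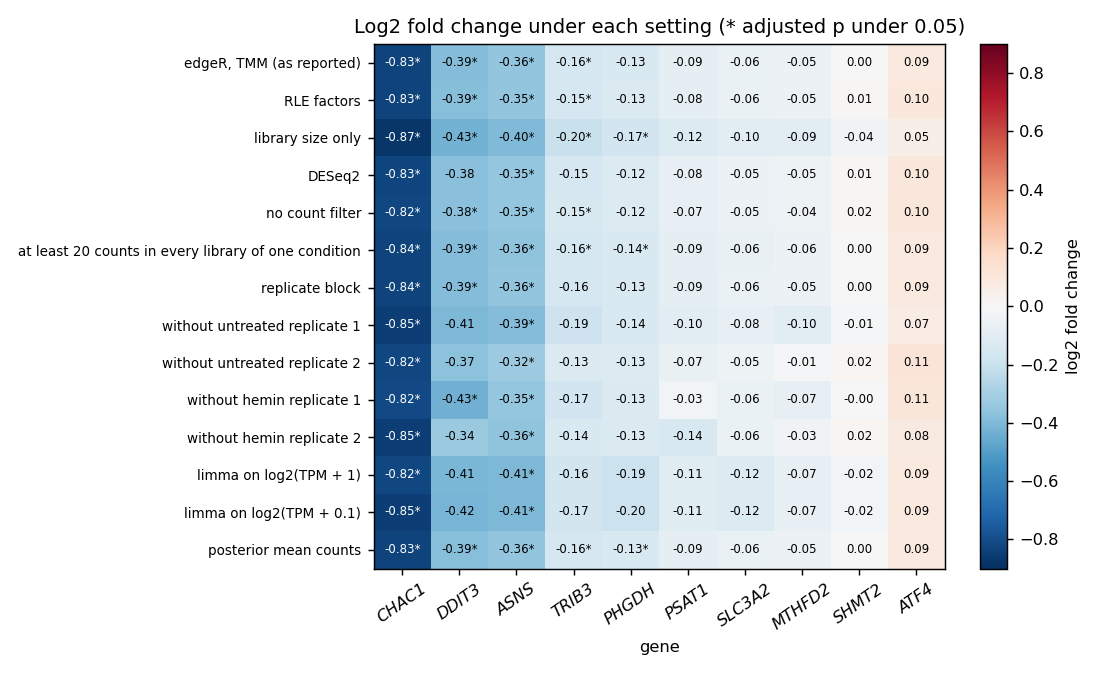
Log2 fold change of the 10 genes (columns) under the reported fit and 13 other settings (rows), coloured from blue for lower to red for higher after hemin, with an asterisk for an adjusted p under 0.05. CHAC1 and ASNS carry an asterisk in every row, DDIT3 in 7 and TRIB3 in 5 of the 13 other rows.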

How the data were processed

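Per the methods of the study, the authors trimmed the 50-base reads with Trimmomatic 0.39 and quantified each library with RSEM 1.3.1 and STAR on Ensembl release 106 (GRCh38). The authors deposited expected counts, in which RSEM divides shared reads between genes without normalization. The authors' TPM are scaled by effective length and by library total. The posterior SD describes the division of shared reads. RSEM's intervals belong to another TPM estimate and were not used. The FPKM tables were not used.

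Here, expected counts were rounded, filtered (filterByExpr), TMM-scaled and entered into edgeR 4.0.16 (R 4.3.3), whose quasi-likelihood test had a single term, condition, and Benjamini-Hochberg adjustment over all 14458 genes. Standard errors were derived from the fold change and the F statistic. On simulated counts, with 196 genes changed 1.33-fold, 85 were called, with 0 false calls, and with 197 genes changed 2-fold, 167 were called, with 5 false calls. Every simulated gene was given the same spread between libraries beyond counting noise, edgeR's common dispersion of 0.001179. Real genes differ in spread, so these counts are no error rate for the calls reported here. With 2 libraries a side, an exact permutation test cannot go below p = 0.333. The settings tried in place of these were RLE factors or library size only, DESeq2 1.42.0, no count filter, at least 20 counts in every library of one condition, a replicate block, leaving out each library, limma 3.58.1 on log2(TPM + 1) and log2(TPM + 0.1), and posterior mean counts. Coordinates are from GENCODE 44 (GRCh38), which held 99.84% of the genes. Promoter windows are from RefSeq (GRCh38.p14).

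The members and lists were chosen with earlier results of these data known. Named genes were the 10 members, the eIF2 kinases, and up to 4 called genes per list in order of p. Other genes are named as overlapping genes, markers or background, after their values were seen. The result of 1 gene that this rule names is not reported here.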

Additional observations from a re-analysis of the deposited data

How the results depend on the processing

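The decreases of *CHAC1* and *ASNS* were called under all 13 alternatives, with log2 fold changes of -0.87 to -0.82 and of -0.41 to -0.32, and 9 of the 10 genes kept their direction in all of them. The exception was *SHMT2*, at -0.0351 with library size only, -0.0084 without untreated replicate 1, -0.0043 without hemin replicate 1 and -0.0247 by limma on both TPM scales (-0.0084 to 0.0182 with one library left out). The count of the 10 genes called lower was 4, and it was 2 with DESeq2, 2 by limma on either TPM scale and 2 to 3 with one library left out. Over all genes, 1012 were higher and 1033 lower, against 729 and 1358 with library size only, 589 and 479 with DESeq2, 14 and 33 by limma on log2(TPM + 1), and 15 and 34 on log2(TPM + 0.1). With one library left out they ran from 469 to 934 and from 512 to 884. Where 1 library remained in a condition, its spread was taken from the other condition, and the cause of these shifts was not tested.

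With the replicate number as a block, 855 genes were higher and 886 lower, and 3 of the 10 genes were called, *TRIB3* having an edgeR adjusted p of 0.0701. The labels do not say that a number marks a shared culture. The deviations of same-numbered libraries had a correlation of -0.014 across 11862 genes. Counting noise enters each deviation, so this value cannot tell whether same-numbered libraries shared a culture or batch.

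Among the lists, the eIF2 list went from 1 call to 2 with no count filter, the folate list from 2 to 5 with no count filter or posterior mean counts, the synthetases from 1 to 4 with library size only and 2 with no count filter, the stress outputs from 4 to 7 with library size only, and the partner factors from 2 to 1 with DESeq2. By limma on either TPM scale 2 stress outputs, 1 gene of the IRE1 and ATF6 arms and 0 genes of the other lists were called. With one library left out the calls were 0 to 1 for the eIF2 list, 1 to 2 for the partner factors and the synthetases, 2 to 3 for the folate enzymes, the other synthesis enzymes and the transporters, 3 to 5 for the stress outputs and 7 to 9 for the IRE1 and ATF6 arms. Without a detectable change, *EIF2AK2* ran from -0.0831 to 0.037 with one library left out, positive without hemin replicate 1. *EIF2AK3* ran from -0.0994 to 0.0232, positive without untreated replicate 2 or hemin replicate 1, and was at 0.0811 and 0.0845 by limma on log2(TPM + 1) and log2(TPM + 0.1), where *SLC38A2* was at -0.0256 and -0.0258.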
